A study of Mus musculus with 2 samples.

Results

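The cells described here are young-library cells with almost no mitochondrial transcripts that carried at least 1 transcript each of Pax3 and Sox2. Pax3 is a paired-box factor of the dorsal neural tube, neural crest and somites, and Sox2 is a factor of neural progenitors. There were 355 such cells, 14.4% of the 2463 cells of the young library (exact 95% interval 13.05 to 15.86) and part of 3893 cells in all. They were chosen by measured values: 13 mitochondrial genes summing to under 100 unique molecular identifiers (UMIs, counted molecules) per 10,000, at least 10 per 10,000 of the ribosomal pseudogene Rpl9-ps6, and Pax3 and Sox2 above 0. Cells with 4 or more of Top2a, Ccnb1, Ube2c, Cenpf and Cks2, with 2 or more of Twist1, Prrx1 and Fbln1, or with 3 or more of Nefm, Sst, Elavl2 and Gap43 had been set aside as mitotic, mesenchymal and neuron types. The levels of these genes therefore describe the choice and support nothing. All intervals cover counting error only.

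The study profiled the dentate gyrus of C57BL/6 mice at 3 months (young) and 16 months (old) by droplet single-cell RNA sequencing of the 3' ends of transcripts. The tissue was microdissected, dissociated with papain and sorted for live cells by exclusion of propidium iodide, and the labels name no genetic change or drug. There was 1 library per age, and whether a library pooled several mice is not given in the sources used here. With 1 library per group no difference between ages or classes could be tested, and cells are not replicates.

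In the embryonic neural tube, Sox2 marks dividing neuroepithelial cells and radial glia, and Pax3 marks their dorsal part, under the influence of BMP and Wnt signals from the roof plate. Position along the head-to-tail axis is marked by other factors: Emx2, Otx1 and Otx2 in the anterior tube, En1 and En2 at the midbrain and isthmus, and Hox genes behind. Adult dentate neural stem cells also carry Sox2, together with glial genes such as Gfap, Slc1a3 and Fabp7.

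The comparison classes lay in the same library. Of 1297 low-mitochondrial cells with Rpl9-ps6, 27.4% were Pax3 and Sox2 cells (24.96 to 29.89), and the other 942 comprised 159 mitotic-type, 103 mesenchymal-type, 268 neuron-type, 279 Sox2 without Pax3, 62 Pax3 without Sox2 and 71 with neither. Classes of ordinary brain cells served as reference: 169 cells with at least 4 of 5 astrocyte markers and 418 with at least 3 of 5 microglia markers. The Pax3 and Sox2 cells had a median of 7338 UMIs (935 to 19532), against 7525 in microglia-marker, 3614 in astrocyte-marker and 7094 in Sox2 without Pax3 cells. For part of the genes, shares in microglia-marker cells, of near-equal depth, are given beside those of the Pax3 and Sox2 cells. They can hold free RNA as well as the microglia's own transcripts, and their part in the values of the Pax3 and Sox2 cells was not tested.

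The libraries shared cell barcodes, which limits any reading by age. How the same barcodes came to be in both libraries was not tested. Of the 355 barcodes, 63 (17.7%) were also in the old library, where the same barcode held 0.149 times the UMIs (0.132 to 0.166 over the 63 pairs). Each of the 63 old profiles was most like its own young partner among all 355. The same rule found 28 cells in the old library (1.96% of 1430, 1.30 to 2.82), and 28 of 28 had a barcode of a young low-mitochondrial cell: 15 Pax3 and Sox2 cells, 8 mitotic-type and 5 neuron-type. Their median depth in the old library was 1532.5 UMIs, against 10634 for the same barcodes in the young library. The old cells were therefore not used as a separate sample, no comparison between the ages was made, and all further values are of the young library. For contrast, 161 of 169 astrocyte-marker and 407 of 418 microglia-marker barcodes were shared, at medians of 1.11 and 1.12 times the UMIs in the old library. Nearly all reference cells therefore had a barcode found in both libraries.

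Pax3 (chromosome 1, 78101267 to 78197134, minus strand, GRCm38) gave 704 UMIs in the 355 cells. Of these cells 179 (50.4%) had 1 UMI, 87 had 2 and 89 had 3 or more, up to 9. Sox2 (chromosome 3, 34650405 to 34652461, plus strand) gave 1283 UMIs, with a median of 3 and a highest value of 12. Sox2 was thus well above single molecules in most cells, while membership rested on 1 Pax3 molecule in about 1 of every 2 cells. The highest mitochondrial sum inside the rule was 75.9 per 10,000 and the lowest Rpl9-ps6 level was 10.7 per 10,000, and no cell that met the other conditions lay outside either limit. Before the limits on types 522 cells had both Pax3 and Sox2. Of the 167 set aside, 98 had 4 or more mitotic genes, 20 had 2 or more mesenchymal genes and 61 had 3 or more neuron genes, some by more than 1 limit. Inside the limits, 29 cells had 3 mitotic genes, 127 had 1 mesenchymal gene and 92 had 2 neuron genes.

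The general make-up of the RNA set these cells apart from the brain cells of the same library. Mitochondrial genes, which the rule used, held 8.37 UMIs per 10,000, against 992 in astrocyte-marker and 574 in microglia-marker cells. Cytosolic ribosomal protein genes, which the rule did not use, held 39.4% of all UMIs, against 3.35% and 10.9%. The 9 columns of ribosomal pseudogenes, 1 of them in the rule, held 146 per 10,000, against 0.145 and 0.645. The other low-mitochondrial cells had 36.5% and 133 per 10,000, so this make-up was shared by the whole low-mitochondrial set. Malat1, a nuclear noncoding RNA, stood at 8.41 per 10,000 against 633 in astrocyte-marker and 280 in microglia-marker cells.

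**Figure D1:**
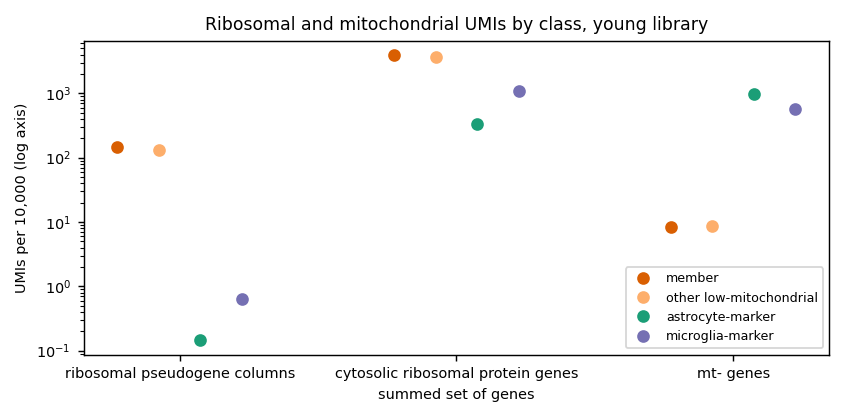
UMIs per 10,000 (log axis) of 9 ribosomal pseudogene columns, of cytosolic ribosomal protein genes and of 13 mitochondrial genes, each summed over all cells of a class of the young library. The Pax3 and Sox2 cells (member) lie beside the other low-mitochondrial cells and away from the astrocyte-marker and microglia-marker cells in all 3 sets.

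The 6 named genes with the highest ratios to astrocyte-marker cells were led by ribosomal gene copies. Rpl39l, a copy of the ribosomal gene Rpl39 (chromosome 16, 10170226 to 10174911, plus strand), gave 45.5 UMIs per 10,000, against 0.0145 in astrocyte-marker cells and 0.0356 in microglia-marker cells. Rpl39 itself gave 5.16 per 10,000 against 4.08 in astrocyte-marker cells. Wdr89 (22.4 against 0.058 per 10,000), Rps27rt (16.7 against 0.102), Hnrnpa1 (42.6 against 0.754), Myl6b and Rpl10l followed, and the last 2 had 1152 and 883 UMIs where astrocyte-marker cells had 0. Counts of Rpl39l, Rps27rt, Rpl10l, Myl6b, Hnrnpa1 and Wdr89 are uncertain where they share sequence with other genes or pseudogenes, since the counting could split such reads. In the other low-mitochondrial cells Rpl39l was at 40.1 per 10,000, so this level was not particular to the Pax3 and Sox2 cells. Over all 10156 genes tested against astrocyte-marker cells, 1279 (12.6%) were at least 2-fold higher and 4892 (48.2%) at least 2-fold lower with an interval of the ratio that left out 1. The median log2 ratio over those genes was −0.92. It was −0.39 with median-of-ratios scaling, where 1920 genes were higher and 3077 lower, so directions against brain cells are relative to this shift. Of the called genes 20.7% were higher with the first scaling and 38.4% with the second. The reads were aligned to the mouse genome mm10, per the submitters' processing notes. Whether the RNA of these cells was all from mouse was not tested.

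The progenitor genes were present but not particular to the Pax3 and Sox2 cells. Of 30 neural progenitor and radial glia genes, 29 had a UMI in at least 1 cell, 19 in at least 10% of cells and 7 in at least 50%. The list summed to 69.6 per 10,000, against 78.2 in the other low-mitochondrial cells, a ratio of 0.890 (0.875 to 0.905). Neuron-type (99.1), mitotic-type (79.97), mesenchymal-type (75.7) and Sox2 without Pax3 cells (70.9) were above the Pax3 and Sox2 cells. Pax3 without Sox2 cells (56.6) and cells with neither (46.1) were below them. Over 29 genes tested against the other low-mitochondrial cells the median log2 ratio was 0.13. Vim, the intermediate filament of neuroepithelium, had a UMI in 99.7% of cells (27.6 per 10,000), against 96.1% of other low-mitochondrial and 3.35% of microglia-marker cells. Sox4 and Sox11, factors of newly committed progenitors and neurons, were seen in 97.5% and 95.2%. Sox4 was also seen in 66.3% of microglia-marker cells, whereas Sox11 was seen in 2.87%. Cdh2, the neural cadherin, was found in 83.4%, the ciliary and dorsal-tube factor Rfx4 in 65.6% and the Notch target Hes1 in 63.1%. The last was also in 32.3% of microglia-marker cells. Sox3, a close relative of Sox2, was in 30.7% against 0.718%, and Lin28b, an RNA-binding protein of early embryonic cells, in 22.0% against 0.

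Of 16 markers of adult dentate stem cells, 14 had a UMI, 4 were in at least 10% of cells and 3 in at least 50%. Without Sox2, which the rule used, they summed to 7.33 per 10,000, most of it Id4 (4.53) and Apoe (1.87), a lipoprotein gene of glia that was also in 73.7% of microglia-marker cells. Its other glial members were lower. Gfap was at 0 UMIs in 355 cells, which allows up to 0.845% of cells with a UMI, while 72.8% of astrocyte-marker cells had one. Nes, an intermediate filament of neural stem cells, had 8 UMIs in 1.97% of cells, and Fabp7, a radial glia gene, 8 UMIs in 2.25%. Both shares were below those of microglia-marker cells, 3.11% for Nes and 4.55% for Fabp7. Slc1a3, a glutamate transporter of radial glia and astrocytes, was in 9.30% of cells, against 97.0% of astrocyte-marker and 61.0% of microglia-marker cells. All 14 astrocyte markers together summed to 1.37 per 10,000, against 274 in astrocyte-marker and 2.88 in microglia-marker cells. Of that sum Gja1, a gap junction gene that embryonic progenitors also carry, made up 283 of 363 UMIs. Emx1 and Tbr1, factors of the telencephalon, had 1 UMI each, and Lhx2 had 4. Other forebrain factors were present: 10 of 12 had a UMI and 3, Emx2, Otx2 and Otx1, were in at least 10% of cells.

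**Figure D2:**
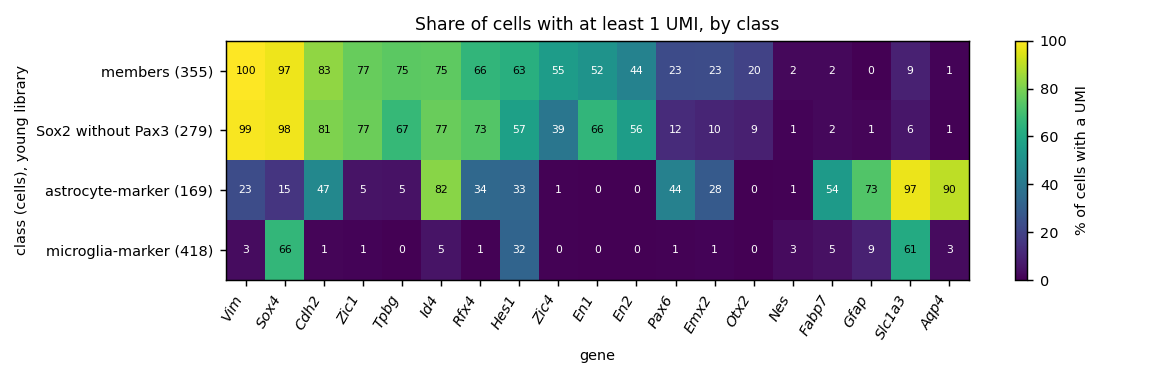
Percentage of cells with at least 1 UMI (colour and rounded number) of 19 genes in 4 classes of the young library, with the number of cells in brackets. The Pax3 and Sox2 cells (top row) share Vim, Cdh2, Zic1, En1 and En2 with the Sox2 without Pax3 cells, and Gfap and Aqp4, in 72.8% and 89.9% of astrocyte-marker cells, are in 0% and 0.845% of the top row.

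Markers of other Pax3 tissues were counted next. For neural crest, 11 of 16 markers had a UMI and 4 were in at least 10% of cells: Nr2f2, Tfap2b, Sox5 and Crabp1. Their list summed to 2.81 per 10,000, against 7.96 in the other low-mitochondrial cells. Neuron-type (20.8) and mesenchymal-type cells (8.42), which the rule sets aside, were the highest of those. Sox2 without Pax3 (2.19) and mitotic-type cells (2.70) were slightly below the Pax3 and Sox2 cells. Pax3 without Sox2 cells (4.08) and cells with neither (5.65) were above them. For somite and muscle progenitors, 3 of 11 markers present in the table had a UMI, and the list summed to 0.124 per 10,000. Mesenchyme markers summed to 3.34 per 10,000, led by Col1a2, a fibrillar collagen, in 52.1% of cells. Endothelial markers summed to 0.0527, and microglia markers to 0.712, against 473 in microglia-marker cells. Microglia markers stood at 0.602 in the other low-mitochondrial cells, close to the 0.712. Of the 0.712, Aif1 made up 0.222, while it made up 8.50 of the 473. Whether the UMIs of microglia markers were free RNA, and their part in the other results, was not tested.

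Several positional lists were well represented. Of 19 dorsal neural tube factors besides Pax3, 19 had a UMI and 8 were in at least 10% of cells. Zic1, a zinc-finger factor of the dorsal tube, was in 76.6% of cells (3.42 per 10,000), and Zic4 was in 55.2%. Zic5 and Zic2 were in 33.8% and 32.4%. Rspo3, a Wnt-enhancing ligand, was in 21.1%, Bmp4 in 16.6% and Pax7, the closest relative of Pax3, in 11.3%. Bmp7 (9.30%), Lmx1b (9.01%) and Wnt1 (8.45%), which mark the roof plate and midbrain midline, were in fewer cells. In microglia-marker cells these genes were in at most 0.957% of cells. Atoh1, of the dorsal-most progenitors, was seen in 1.69% of cells. In Sox2 without Pax3 cells Zic1 (77.4%) and Pax7 (15.8%) had similar or higher shares. Zic4 (39.1%), Rspo3 (15.4%) and Wnt1 (5.02%) had lower ones.

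Of 8 intermediate neural tube factors in the table, 6 were in at least 10% of cells, among them Sp8 (27.3%), Pax6 (22.8%), Sp9 (12.7%), Irx5 (12.1%) and Irx3 (11.8%), and their list summed to 2.79 per 10,000. Ventral and posterior factors were low. Of 9 ventral factors in the table, 6 had a UMI and 0 reached 10% of cells; the list summed to 0.218 per 10,000. Of 39 Hox genes looked for, 9 were in the table, 5 of them had a UMI and the sum was 0.0264 per 10,000. The other 30 were not among the table's columns and say nothing.

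Midbrain and isthmus factors were all seen, 10 of 10, with 4 in at least 10% of cells. En1 (chromosome 1, 120602418 to 120607992, plus strand) had a UMI in 51.5% of cells (46.2 to 56.9) and En2 (chromosome 5, 28165694 to 28172166, plus strand) in 44.2% (39.0 to 49.6). In the other low-mitochondrial cells En1 was in 52.9% and En2 in 47.0%, so these shares were not particular to the Pax3 and Sox2 cells. Neither gene had a UMI in the 169 astrocyte-marker or the 418 microglia-marker cells, which allows up to 1.78% and 0.718% of those cells. Pax8 was in 15.2%, Fgf8, the signal of the isthmus, in 13.5%, Fgf17 in 6.48% and Gbx2 in 6.20%. The anterior factors and Pax6 were in fewer cells than En1 and En2 and in more than the others just named. Emx2 was in 23.4%, Pax6 in 22.8%, Otx2 in 19.7% and Otx1 in 18.3%. Otx2 was at 0 in both reference classes, while Pax6 and Emx2 were also in 43.8% and 28.4% of astrocyte-marker cells.

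En1 or En2 was seen together with Pax6 or Emx2 in fewer cells than their shares would give. En1 or En2 was found in 237 of 355 cells (66.8%) and Pax6 or Emx2 in 111 (31.3%). Both were found in 40 cells, against 74.1 if the groups were unrelated, a ratio of 0.54. After thinning to 2000 UMIs, which left 348 cells because 7 were shallower, 10 cells had both against 25.6. Otx1 and Otx2 were not part of the split, and across the 355 cells of this library En1 was nearly uncorrelated with them (Pearson's r of −0.066 and −0.060, as a description). For En2 the values with Otx1 and Otx2 were −0.256 and −0.195. The split was looked for after these values were seen. It left 197 cells with En1 or En2 alone, 71 with Pax6 or Emx2 alone and 47 with neither, at median depths of 7228 and 7761 UMIs in the first 2 sets. Depth was therefore similar, but cells missing a low gene by chance fall in every set.

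Genes that did not define the split differed between its sides. On the Pax6 or Emx2 side, Epha7, an ephrin receptor, was in 66.2% of cells, against 4.06% on the En side. Otx2 was in 49.3% against 9.14%, Otx1 in 46.5% against 7.11% and Mecom, a zinc-finger factor, in 43.7% (31.9 to 56.0) against 0.508% (0.0129 to 2.80). Fezf2, a forebrain factor, was in 31.0% against 0 of 197 cells, which allows up to 1.52% of cells. Barhl1 was in 31.0% against 1.52%. Tpbg, a Wnt-modulating membrane protein, was in 97.2% against 70.1%, at 10.8 against 3.74 UMIs per 10,000.

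On the En side the isthmic and midbrain genes stood higher. Fgf8 was in 20.8% of cells (15.4 to 27.2) against 4.23% (0.880 to 11.9), Irx2 in 57.4% against 26.8% and Irx3 in 15.2% against 0 of 71 cells. Wnt1 was in 12.2% and Fgf17 in 11.7%, each against 0 of 71, which allows up to 4.23%. Rfx4 was in 73.6% against 47.9%, and Id4, a target of BMP signalling, in 84.8% against 57.7%. Both sides had Vim in 100% of cells, and Zic1 was in 75.6% and 83.1%. The intervals of these Zic1 shares overlapped.

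Among cells that the rule had left out, classes differed. In mitotic-type cells 18 had both, against 19.9 if unrelated, and in neuron-type cells 19 against 33.0. Of the 279 Sox2 without Pax3 cells, 225 had En1 or En2 and 45 had Pax6 or Emx2; 18 had both, against 36.3 if unrelated. Epha7 was in 66.7% of their 27 Pax6 or Emx2 cells against 3.38% of their 207 En cells. Otx2 was in 48.1% against 4.35%, Mecom in 48.1% against 1.45%, and Fgf8 in 7.41% against 25.6%. Both classes come from 1 library, so the second is not an independent sample.

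**Figure D3:**
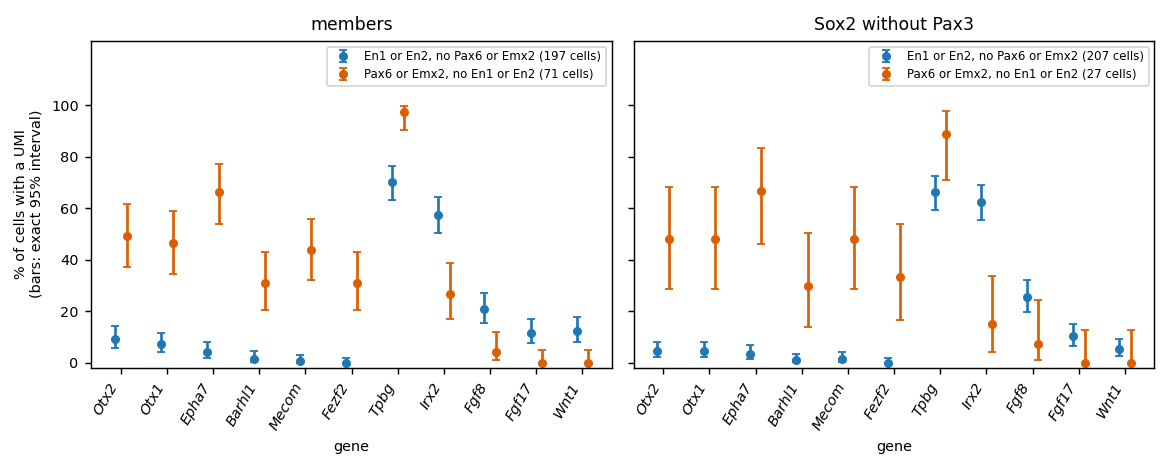
Percentage of cells with a UMI of 11 genes (points, with exact 95% intervals) in cells with En1 or En2 alone (blue) and with Pax6 or Emx2 alone (orange), for the Pax3 and Sox2 cells (left, 197 and 71 cells) and the Sox2 without Pax3 cells (right, 207 and 27 cells). From Otx2 to Tpbg the orange points lie above the blue, from Irx2 to Wnt1 below, in both panels.

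Values are also given by the number of Pax3 UMIs. Pax3 is a gene of the rule and the cells come from 1 library, so they are a description and support nothing. In cells with 1, 2 and 3 or more Pax3 UMIs, Emx2 was in 15.6%, 18.4% and 43.8%, and Pax6 was in 16.2%, 19.5% and 39.3%. Otx2 was in 12.3%, 20.7% and 33.7%, Tpbg in 67.0%, 80.5% and 84.3%, and Zic4 in 47.5%, 55.2% and 70.8%. En1 stayed near 1 level (52.0%, 55.2% and 47.2%), and En2 was in 46.4%, 50.6% and 33.7%. Median depths were 7350, 7105 and 7594 UMIs. Thinned to 2000 UMIs, Tpbg was in 40.1%, 55.2% and 64.0%, Pax6 in 7.56%, 14.9% and 25.8%, and Emx2 in 9.30%, 8.05% and 21.3%. The dorsal genes did not all follow one order: Bmp4 was in 9.50%, 19.5% and 28.1%, whereas Pax7 was in 11.7%, 13.8% and 7.87% and Wnt1 in 8.94%, 10.3% and 5.62%.

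**Figure D4:**
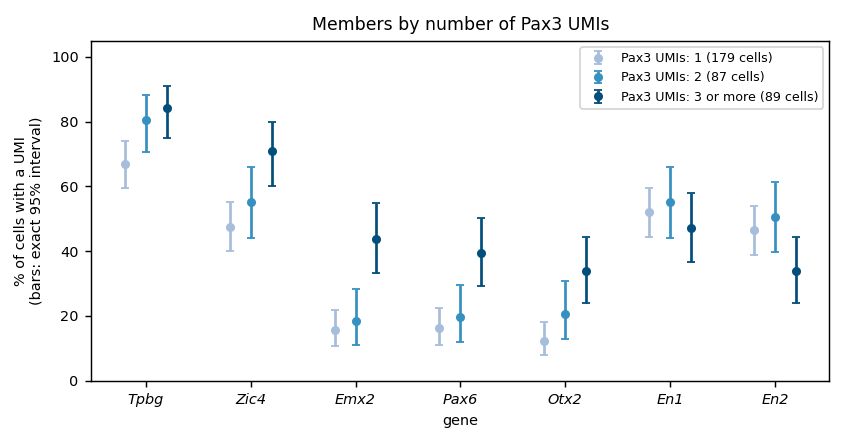
Percentage of cells with a UMI of 7 genes (points, with exact 95% intervals) among Pax3 and Sox2 cells with 1, 2 and 3 or more Pax3 UMIs (179, 87 and 89 cells, light to dark). Emx2, Pax6 and Otx2 are highest in the darkest group, En1 is similar in the 3 groups.

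Against all other low-mitochondrial cells few genes stood higher, and those that stood lower were largely what the rule removes. Of 9491 genes tested, with the genes of the rule left out, 2 (0.0211%) were at least 2-fold higher and 93 (0.98%) at least 2-fold lower with an interval that left out 1. The 2 were Tpbg (chromosome 9, 85842380 to 85847040, plus strand) and Cdh18, a cadherin. Tpbg was in 74.6% of cells at 5.70 per 10,000, against 48.5% and 2.64, a ratio of 2.16 (2.01 to 2.31). Cdh18 had 85 UMIs against 71 in nearly 3 times as many cells, a ratio of 3.19 (2.30 to 4.43).

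Among genes in at least 20% of the cells, the next by log2 ratio were Emx2 (0.90, on the scale of UMIs per 10,000 plus 0.1), Rspo3 (0.82), Lgi1 (0.81), Col4a6 (0.78) and Zic4 (0.78). Ccdc80 (0.78), Wnt4 (0.72), Polr3d (0.70), Pax6 (0.68), Rcn1 (0.68) and Sdk2 (0.65) completed the highest 12. Wnt4 and Rspo3 act in Wnt signalling, Col4a6 is a basement membrane collagen and Sdk2 an adhesion protein. The lowest genes were those of young neurons. Stmn2, a tubulin-binding protein of growing axons, was at 2.05 per 10,000 against 20.4 (log2 −3.25), though a UMI was found in 64.8% and 72.3% of cells. Ebf1 (−2.45), Dcx (−2.35), Rtn1 (−2.26), Onecut2 (−2.18), Runx1t1 (−2.18) and Tfap2b (−2.04) followed, with Cdkn3, a mitotic phosphatase, at −1.79. Since the rule sets aside neuron and mitotic types, these low values are a description of the choice.

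By pathway, list medians are given beside that of all genes, a log2 ratio of −0.021 against the other low-mitochondrial cells. Median log2 ratios were 0.12 over 17 dorsal factors tested, 0.084 over 14 Notch genes, 0.066 over 25 Wnt genes, 0.11 over 21 BMP genes and 0.026 over 16 FGF genes. None of the genes in these 5 lists was called higher, and 1, in the Wnt list, was called lower. Summed levels were 1.36 times those of the other cells for dorsal factors (1.30 to 1.43) and 1.23 times for Notch genes (1.18 to 1.29). They were 1.18 times for BMP genes (1.15 to 1.22), 1.06 times for Wnt genes (1.02 to 1.11) and 1.02 times for FGF genes (0.960 to 1.08). These ratios depend on the types that the rule set aside. BMP genes held 27.5 per 10,000, against 28.4 in Sox2 without Pax3 and 33.6 in mitotic-type cells. Mesenchymal-type (15.1) and neuron-type cells (14.2) were lower. Against Sox2 without Pax3 cells, Notch genes held 11.2 against 10.3 and dorsal factors 8.79 against 7.50. Of 7 forebrain factors tested, 0 were called in either direction, although their summed level was 1.84 times that of the other cells (1.63 to 2.07), mostly Emx2. Neurogenic commitment genes had 8 of 22 called lower and 0 higher, and genes of the G2 and M phases 11 of 26 lower and 0 higher, both shaped by the rule.

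Signalling components were present on several levels. Among Notch genes, the nuclear partner Rbpj was in 83.9% of cells, the ligand Jag1 in 40.0%, the receptor Notch2 in 40.3%, the target Hes5 in 20.8% and the ligand Dll1 in 18.6%. Notch1 was in 2.25%, below the 21.1% of microglia-marker cells. Among Wnt genes, Ctnnb1, the transcriptional partner, was in 91.5%, the secreted inhibitor Sfrp2 in 53.2%, the receptor Fzd3 in 52.4% and the target Axin2 in 24.8%. Sfrp2 was in 0 of 418 microglia-marker cells, but Ctnnb1 was in 51.4% of them. Among BMP genes the targets Id2, Id3 and Id4 were in 87.3%, 85.9% and 75.2%. For FGF, the feedback inhibitor Spry2 was in 53.8% and the receptor Fgfr1 in 37.5%. Hedgehog genes were fewer: Gas1, a co-receptor, was in 44.2%, Gli3 in 21.7% and the target Ptch1 in 4.51%.

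The closest class was Sox2 without Pax3. Of 7800 genes tested against it, 4 (0.0513%) were at least 2-fold higher, and 0 (0%) were at least 2-fold lower. The 4 were Emx2 (280 UMIs against 75, log2 1.26), Cdh18 (1.21), Pdzrn4 (1.19) and Epha7 (1.09). Pax6 (0.96) and Otx2 (0.90) were the next among genes in at least 10% of cells. Toward the other side, Fgf8 was at 0.659 per 10,000 against 1.29 (log2 −0.87), and the metallothioneins Mt1 and Mt2 were at −0.86 and −0.83. En1 was in 51.5% against 66.0% of cells and En2 in 44.2% against 55.6%. Median depths were 7338 and 7094 UMIs. By list, 0 of 9 midbrain and isthmus factors tested were called in either direction, and 1 of 3 forebrain factors, Emx2, was called higher. Wnt1 was in 8.45% against 5.02% of cells.

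Cell cycle genes were present, and low beside mitotic-type cells. Of 30 S phase genes, a Pax3 and Sox2 cell had a median of 2 with a UMI. In 53 cells (14.9%) 5 or more were seen, and the highest count was 12 of 30. The share with 5 or more was 70.4% in mitotic-type and 7.89% in microglia-marker cells. It was 18.6% in Sox2 without Pax3, 14.6% in mesenchymal-type and 5.97% in neuron-type cells. Mitotic-type cells were set aside by the rule, so the low level beside them is a description of the choice. Ccnd1, a cyclin of the G1 phase, was in 42.0% of cells, but also in 57.2% of microglia-marker cells, and the growth-arrest gene Cdkn1b was in 39.2%.

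The cells fell into 7 clusters when grouped without the genes of the rule, mitochondrial genes and ribosomal pseudogenes. The leading genes define the clusters, so their levels are given as a description. Scrublet marked 2 of 355 cells as doublets, and both lay in cluster 5.

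Genes of position were among the leading genes of clusters 2, 3 and 6. Cluster 2 (71 cells) was led by Fgf8, the Notch target Hes5, Nkain3, Sp9 and Lix1. Fgf8 was at 2.56 per 10,000 against 0.231 in the other Pax3 and Sox2 cells, and En2 was in 73.2% of its cells, Otx2 in 0 and Emx2 in 2.82%. Cluster 3 (38 cells) was led by Pax6 (89.5% of cells, 7.02 against 0.406 per 10,000), Epha7, Barhl1, Gpc3 and Emx2 (78.9%). In it En2 was at 0, En1 was in 10.5% of cells, Tpbg in 100% and Pax3 at 4.82 against 2.41 per 10,000. Cluster 6 (82 cells) was led by Rspo3, Wnt1, Cdh18, Rorb and Col4a6. Its cells had Wnt1 in 28.0% against 2.56%, Bmp4 in 39.0% against 9.89%, En1 in 67.1%, Otx2 in 39.0%, Tpbg in 97.6% and the highest sum of dorsal factors of the 7, 15.0 per 10,000.

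Clusters 4, 5 and 1 were led by genes of replication, neuron commitment and stress. Cluster 4 (58 cells) was led by Mcm7 and Hells, genes of DNA replication and chromatin, with Ptx3, Irx5 and Lmnb1, and its S phase list summed to 13.04 per 10,000, against 1.80 to 3.34 in the other 6. Its positional genes were near those of cluster 2, with En2 in 56.9% of cells, Pax6 in 5.17%, Emx2 in 1.72% and Otx2 in 0. Cluster 5 (19 cells) was led by Crabp1, Tlx3, Insm1 and Tfap2b, genes of early neuron commitment and retinoic acid binding. Insm1 was in 84.2% of its cells, against 3.57% of the rest, Hes1 was in 5.26% against 66.4%, and neurogenic commitment genes summed to 48.0 per 10,000. Its neural crest list summed to 23.6 per 10,000, of which its own leading genes Crabp1 (10.6) and Tfap2b (12.1) made up nearly all. Cluster 1 (46 cells) was led by the metallothionein Mt2, the stress genes Herpud1 and Asns, Snap25 and Arf4. Its median depth was the highest, 9703 UMIs, and 21 of its 46 barcodes were in the old library, against 1 of 71 in cluster 2. Cluster 7 (41 cells) was led by Lmo4, Fam46a, Nr2f1, Ifitm1 and Col1a1, with log2 ratios of at most 1.60.

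**Figure D5:**
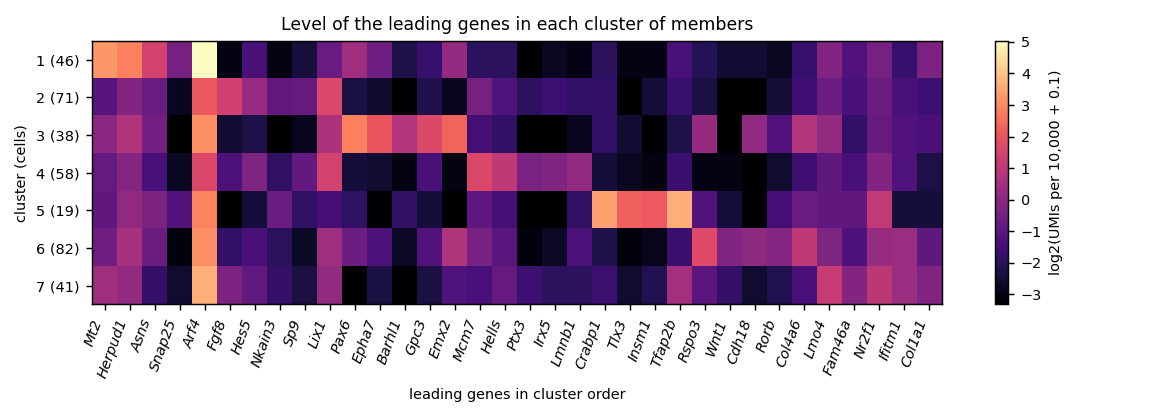
Level, as log2 of UMIs per 10,000 plus 0.1, of leading genes (5 per cluster, 4 for cluster 5) of 7 clusters of Pax3 and Sox2 cells (rows, with the number of cells in brackets). Blocks on the diagonal are the leading genes of a cluster in itself; they are sharpest in clusters 3 and 5 and weak in cluster 7.

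Genes that nearly every brain cell carries were each found in some of the cells. Of 20 genes with a UMI in at least 90% of both astrocyte-marker and microglia-marker cells, 0 were in at most 1% of the Pax3 and Sox2 cells, and the lowest of the 20 was in 4.23%. Mitochondrial genes and genes of the rule were not left out of this count. The part of free RNA in these shares was not tested, so they are a description and support nothing.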

How the data were processed

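Single-cell RNA of the young and old dentate gyrus was measured in 1 library each. Judged from their values, the deposited tables are on a natural log scale: each entry is ln(1 + x), with x the gene's UMIs scaled to a cell total of 10,000. Per the submitters' processing notes the tools were Cell Ranger 5.0.0 and the build mm10; how cells were filtered and which annotation was used is not stated there. Whole UMIs were recovered for 100% of cells (tolerance 0.01 UMI), 16217559 in the young and 7451506 in the old library. Member cells and gene lists (37) were chosen with earlier results of these data known.

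UMIs were summed over the cells of a class. Ratios used UMIs per 10,000 plus a pseudocount of 0.1, genes with at least 10 UMIs over both classes, and exact conditional binomial 95% intervals; shares had Clopper-Pearson intervals. A gene was called at 2-fold or more with an interval that left out 1. A count of 0 was given a limit of 3 counts. Cells were thinned to 2000 UMIs for shares (7 Pax3 and Sox2 cells were shallower). Clusters came from scanpy 1.11.5 (1000 variable genes, 20 components, 15 neighbours, Leiden resolution 1), and doublets from its Scrublet. On simulated counts of the comparison with other low-mitochondrial cells (9429 genes), 178 of 200 genes changed 4-fold were called, and 0 others. The counts were drawn from pooled profiles without differences between cells, and only genes with many UMIs were changed. They therefore do not test calls near 2-fold, near 10 UMIs or under differences between cells. Alternatives changed the rule's limits, pseudocount, scaling, low-count filter, depth, doublets and cluster settings. Python 3.11.15, numpy 2.4.6 and scipy 1.17.1 were used.

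Named genes were the 12 highest and 8 lowest by log2 ratio to the other low-mitochondrial cells (at least 20% of cells and 50 UMIs, without genes of the rule, mitochondrial genes, pseudogenes and unnamed models), the 6 highest against astrocyte-marker cells, list genes in at least 10% of cells with defining genes near 0, and 5 leading genes per cluster (at least 25% of cells and 20 UMIs). Some genes that the rule names are not reported here. The highest and lowest genes against Sox2 without Pax3 cells, Irx2, Fezf2, Mecom, Malat1, Rpl39 and the En split were chosen after their values were seen. Gene positions are from GENCODE M21 (17403 of 17592 columns matched by name).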

Additional observations from a re-analysis of the deposited data

How the results depend on the processing

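No paired analysis was possible because there was 1 library per age, and for the same reason no library could be left out. The number of cells fell to 144 with at least 2 UMIs of Pax3 and of Sox2 and to 165 with each limit on types 1 gene lower. It stayed within 1.5 times of 355 under the other 7 settings. Against the other low-mitochondrial cells, 2 genes higher and 93 lower became 0 and 4 with a pseudocount of 1, and the genes higher became 5 after thinning to 2000 UMIs and 4 without the barcodes shared with the old library. Against astrocyte-marker cells, 1279 higher and 4892 lower became 457 and 749 with a pseudocount of 1 and 1920 and 3077 with median-of-ratios scaling, and 3094 were lower after thinning. All 208 values of the 26 genes named from these 2 comparisons kept their direction. These genes were chosen as the extremes of the same comparisons, and neither the pseudocount nor the low-count filter can reverse a direction. The kept directions are therefore a description.

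The log2 ratio of summed midbrain and isthmus factors, −0.012, was 0.019 with at least 2 UMIs of both genes and 0.080 after thinning, so no direction can be given for that list. With at least 2 UMIs of both, the other lists moved from 0.45 to 0.73 (dorsal), 0.88 to 1.17 (forebrain), −0.17 to −0.090 (progenitor), 0.30 to 0.40 (Notch) and 0.24 to 0.30 (BMP). After thinning, the progenitor, Notch and BMP lists were at −0.24, 0.38 and 0.34. The rise of Emx2 from 1 to 3 or more Pax3 UMIs was 12.05 percentage points after thinning instead of 28.2. The ratio of cells with both En and Pax6 or Emx2 to the count if unrelated, 0.54, was 0.39 after thinning and 0.52 to 0.57 in 4 other settings, all 5 chosen after the data were seen. The causes of these changes were not tested. Clusters numbered 5 at resolution 0.5 and 7 with 2000 variable genes or without cell cycle genes. With 2000 variable genes 33 of 71 cells of cluster 2, 43 of 82 of cluster 6 and 24 of 41 of cluster 7 stayed together, and without cell cycle genes 27 of the 41. Clusters 1, 3 and 5 kept at least 45 of 46, 36 of 38 and 19 of 19 cells together under the 3 settings. Depth limits genes near 1 UMI per cell, Pax3 among them.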
